A study of Homo sapiens with 24 samples.

Results

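The genes described here are 34 genes of homologous recombination and the Fanconi anemia pathway, given as a list of symbols, with no threshold on measured values in the rule. Each symbol matched 1 Ensembl gene among the 60617 genes of the count table, and all 34 had enough counts to be tested beside the other genes, 15476 in all. The samples were MDA686TU (686Tu) cells, an established head and neck squamous carcinoma line. The 4 groups were untreated cells (NT), cells given 40 µM EGCG (epigallocatechin gallate, the main catechin of green tea), cells given 15 µM resveratrol (a polyphenol of grapes), and cells given both at those doses (Combination), all for 24 h and with 6 libraries a group. The solvent was DMSO for the resveratrol stock and water for EGCG. Whether the NT or EGCG cells received DMSO is not given in the sources used here, so resveratrol and its solvent cannot be told apart. The labels do not say that the 6 libraries of a group came from separate cultures, so p-values measure the spread between these libraries, which may be technical.

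Homologous recombination repairs a broken chromosome by copying the intact sister DNA. Nucleases resect the broken ends, BRCA proteins load a recombinase onto the exposed single strand, and its paralogs and helpers steady the filament and promote strand exchange. The Fanconi pathway unhooks crosslinks between DNA strands: a core complex adds ubiquitin to FANCD2 and FANCI, which then recruit nucleases and the recombination proteins. Many of these genes are transcribed mainly as cells enter and pass through DNA synthesis, and several are inherited cancer genes. In bulk RNA, fewer cells expressing a gene and less RNA per cell cannot be told apart.

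Libraries held 7034872 to 11735574 gene counts. All 9 squamous keratinocyte markers examined were abundant (KRT5 at 30959 to 55941 counts), while the defining leukocyte and endothelial genes PTPRC, CD3E and PECAM1 did not exceed 1 count in a library. Of the other genes of those lists CD68 reached 11, VWF 20 and CDH5 4 counts. The fibroblast collagen gene COL1A1 was present at 753 to 1951 counts, COL1A2 at 12 to 33 and LUM at 3 to 12, whereas COL3A1 and DCN did not exceed 1 and PDGFRB 2. The summed fibroblast list moved with the groups (1117 to 1349 normalized counts in NT, 898 to 1114 with EGCG, 1314 to 1559 with resveratrol and 1526 to 1755 with the combination). Its part in the results was not tested. Of the 6 Combination libraries, replicate 3 held the lowest value for 17 of the 34 repair genes and for 24.3% of all tested genes. Of the 6 EGCG libraries, replicate 2 was lowest for 15 of the 34 and for 18.9% of all tested genes. Counts without Combination replicate 3 are given beside the results.

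Part of the set was called with resveratrol and with the combination, and the changes were small. None was called with EGCG alone, where only 0.905% of all tested genes rose and 0.859% fell. A gene was called when edgeR's quasi-likelihood test gave p under 0.05 and a Benjamini-Hochberg adjusted p under 0.1 over all tested genes. With resveratrol alone, 12 of the 34 genes rose (35.3%) and 2 fell (5.88%), where 28.9% of all tested genes rose and 28% fell. With the combination, 12 rose (35.3%) and 5 fell (14.7%), against 29.9% of all tested genes in each direction. With this scaling (TMM) the share that rose was near that of all genes in either comparison, and the share that fell was below it. The median log2 fold change of the 34 genes was 0.08 with resveratrol and 0.04 with the combination, beside 0.0037 and -0.0015 for all tested genes. These comparisons share the NT libraries. The largest called change against NT was -0.46 (log2) for FANCF, and the largest rise was 0.35 for BRCA1. Without Combination replicate 3, 14 genes rose and 4 fell with the combination, where 4596 of 15554 tested genes rose and 4528 fell. These shares depend on the scaling. With libraries scaled by their size alone, 20 of the 34 genes rose (58.8%) and 1 fell (2.94%) with resveratrol, where 39.7% of all tested genes rose and 18.5% fell. With the combination that scaling gave 14 higher (41.2%) and 3 lower (8.82%), where 39.0% of all tested genes rose and 21.4% fell.

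**Figure D1:**
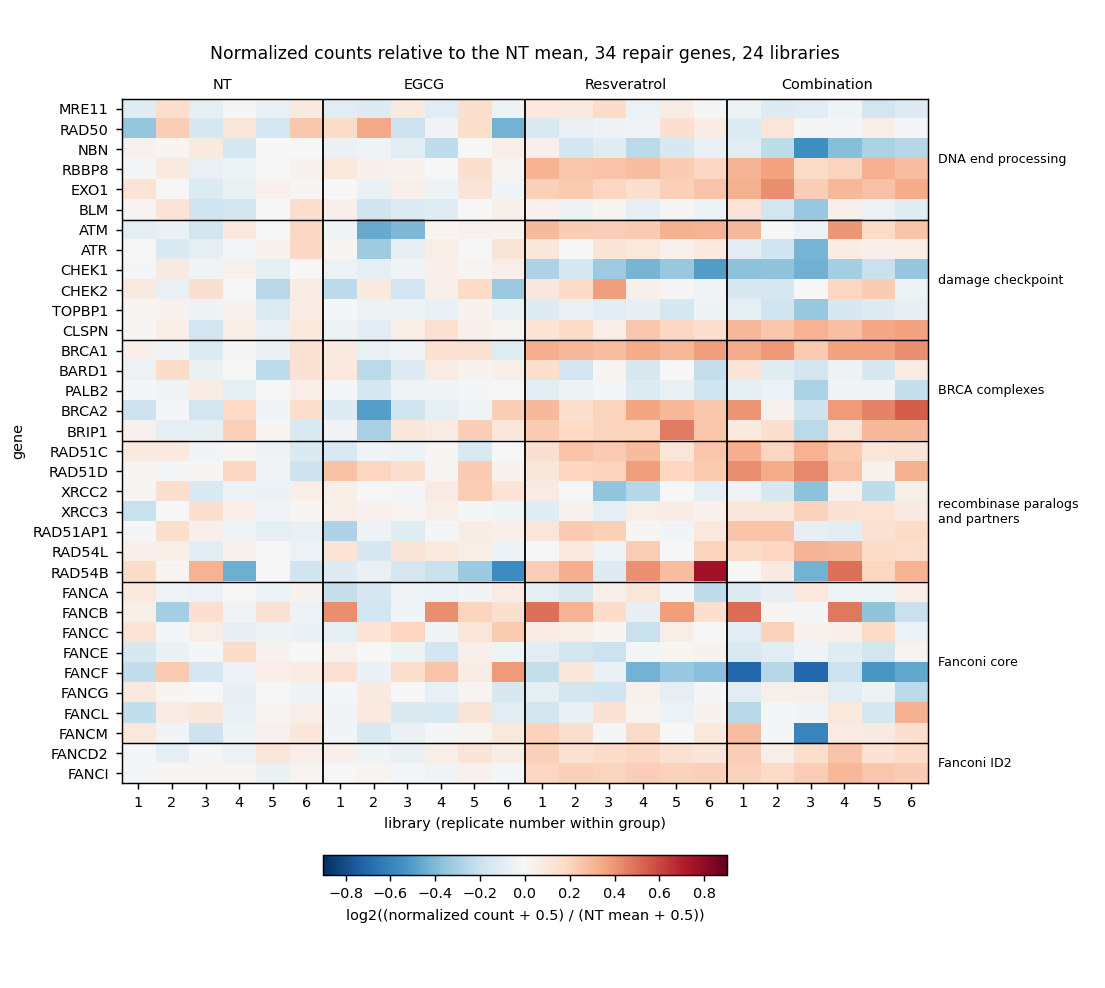
Normalized counts of the 34 repair genes (rows, grouped by role) in each of the 24 libraries (columns, 6 a group), drawn as log2 of the value over the mean of the NT libraries with 0.5 added to each. BRCA1, RBBP8, EXO1 and FANCI are above the NT mean and CHEK1 is below it in all 12 libraries given resveratrol, and Combination replicate 3 stands out as low in NBN, ATR and FANCM.

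The groups separated completely for a smaller number of genes. With resveratrol the lowest of 6 libraries lay above the highest NT library for 7 of the 34 genes, namely RBBP8, EXO1, ATM, BRCA1, RAD51C, FANCD2 and FANCI, and the reverse held for CHEK1. The same separation was seen for 15.1% (higher) and 15.9% (lower) of all tested genes. With the combination the 7 genes wholly above NT were RBBP8, EXO1, CLSPN, BRCA1, RAD51C, RAD54L and FANCI, and CHEK1 was again wholly below it, where 15.4% of all tested genes lay wholly above and 16.5% wholly below. For such genes a two-sided exact permutation test of 6 libraries against 6 gave p = 0.00216, the smallest it can give. The summed normalized count of the 34 genes was 13261 to 14189 in NT, 13061 to 14289 with EGCG, 14477 to 14674 with resveratrol and 13621 to 14945 with the combination. Resveratrol libraries did not overlap NT in this sum. Of the Combination libraries replicate 3 alone, at 13621, fell within the NT range, and the other 5 held 14452 to 14945.

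Untreated cells expressed all 34 genes, over a wide range. Levels between genes were compared by FPKM, which divides by gene length. The deposited FPKM was in a fixed ratio to the normalized count within each gene, so it rests on the same size factors. The highest mean NT level was that of TOPBP1, a scaffold that activates the ATR kinase, at 24.1 ± 1.17 FPKM (SD, n = 6). It was followed by RBBP8 at 18.8 ± 0.725, EXO1 at 18.5 ± 1.08, FANCI at 17.6 ± 0.395, RAD51AP1 at 15.4 ± 0.988 and FANCG at 14.2 ± 0.563 FPKM. BRCA1 stood at 11.3 ± 0.706 and BRCA2 at 3.28 ± 0.354 FPKM. At the low end were ATM (1.27 ± 0.113), FANCB (1.16 ± 0.132), FANCC (1.09 ± 0.0603), RAD50 (0.626 ± 0.104) and RAD54B (0.511 ± 0.0923 FPKM). In this order 27 of 33 neighbouring pairs overlapped between their NT libraries, so most ranks are not distinct, but TOPBP1 stood clear of RBBP8, and FANCG clear of BRCA1. The median was 5.97 FPKM for the 34 genes and 4.95 for all tested genes, and 19 of the 34 lay above the latter.

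Some of these levels depend on how reads were assigned. RAD50 shares 76.9% of its exon bases on the same strand with ENSG00000283782, a gene with a median count of 0, and RAD54B shares 66% with FSBP. XRCC3 shares 76.7% with KLC1 on the opposite strand, RAD54L 19.9% with LRRC41 and FANCA 19.6% with ZNF276. In all, 9 of the 34 genes share exon bases with another gene on their own strand, 22 share some on the opposite strand, and 6 (MRE11, RBBP8, CHEK2, BRCA1, RAD51AP1 and FANCD2) have a pseudogene of their own name. The values of these genes are uncertain to that extent, most of all for RAD50, RAD54B and XRCC3.

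DNA end processing opens the repair. MRE11, RAD50 and NBN form the complex that finds and trims broken ends, RBBP8 (CtIP) activates its nuclease, EXO1 extends the resection, and BLM is the helicase that unwinds the ends. Of these 6 genes RBBP8 and EXO1 rose with resveratrol and with the combination, and NBN fell with the combination. For comparison, 28.9% of all tested genes rose and 28% fell with resveratrol, and 29.9% moved each way with the combination.

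RBBP8 (chromosome 18, 22798261 to 23026488, plus strand, GRCh38) ranged from 798 to 887 normalized counts in NT (median 829), 835 to 922 with EGCG (856), 952 to 1038 with resveratrol (993) and 942 to 1070 with the combination (1022). Every library given resveratrol was above every library without it. The log2 fold change against NT was 0.26 ± 0.036 (SE) with resveratrol (adjusted p = 1.92e-07) and 0.28 ± 0.036 with the combination (adjusted p = 4.25e-08). EXO1 (chromosome 1, 241847967 to 241895148, plus strand) ranged from 614 to 726 in NT (median 670), 641 to 722 with EGCG (660), 738 to 797 with resveratrol (773) and 777 to 892 with the combination (828). Here too the libraries with and without resveratrol did not overlap. Its log2 fold change was 0.21 ± 0.04 with resveratrol (adjusted p = 2.18e-05) and 0.31 ± 0.04 with the combination (adjusted p = 2.2e-08).

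The MRE11 complex did not follow. NBN, which ties the complex to the ATM kinase, ranged from 422 to 503 normalized counts in NT (median 476), 402 to 491 with EGCG (457), 400 to 488 with resveratrol (432) and 323 to 440 with the combination (392). All 6 Combination libraries were below the NT median, but the ranges overlapped. The combination lowered NBN by -0.30 ± 0.058 against NT (log2, adjusted p = 3.66e-05), while resveratrol alone gave -0.11 ± 0.056 (adjusted p = 0.0974), not called because its unadjusted p was above 0.05. MRE11 ranged from 371 to 445 in NT (median 389), 369 to 442 with EGCG (380), 385 to 449 with resveratrol (421) and 356 to 390 with the combination (371). Neither treatment with resveratrol gave a called change in MRE11 against NT (0.07 and -0.09). The log2 fold changes of RAD50 (-0.0041 and 0.0097) and BLM (-0.013 and -0.08) were also not called, on 42.8 to 73.2 normalized counts for RAD50.

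The checkpoint genes signal the damage. ATM responds to double-strand breaks and ATR to exposed single strands, CHEK2 and CHEK1 are the kinases they activate, TOPBP1 activates ATR, and CLSPN (claspin) hands the signal from ATR to CHEK1. Of these 6 genes ATM and CLSPN were called higher and CHEK1 and TOPBP1 lower, both with resveratrol and with the combination. Of all tested genes 28.9% rose and 28% fell with resveratrol, and 29.9% moved each way with the combination.

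CHEK1 (chromosome 11, 125625163 to 125676255, plus strand) ranged from 348 to 390 normalized counts in NT (median 366), 347 to 384 with EGCG (367), 259 to 330 with resveratrol (292) and 273 to 321 with the combination (287). All 12 libraries given resveratrol were below all 12 without it. Its log2 fold change was -0.33 ± 0.05 with resveratrol (adjusted p = 1.17e-06) and -0.33 ± 0.051 with the combination (adjusted p = 7.86e-07). CLSPN (chromosome 1, 35720218 to 35769978, minus strand) went the other way, from 565 to 680 in NT (median 654) and 598 to 703 with EGCG (655) to 663 to 756 with resveratrol (710) and 757 to 820 with the combination (790). Its resveratrol libraries overlapped NT, whereas every Combination library exceeded every library of the other groups. The rise was 0.16 ± 0.043 with resveratrol (adjusted p = 0.00227) and 0.31 ± 0.043 with the combination (adjusted p = 1.35e-07).

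TOPBP1 (chromosome 3, 133598175 to 133662380, minus strand) ranged from 1413 to 1621 in NT (median 1565), 1466 to 1574 with EGCG (1493), 1381 to 1492 with resveratrol (1446) and 1214 to 1461 with the combination (1407). The groups overlapped, although all 12 libraries given resveratrol lay below the NT median. The log2 fold change was -0.09 ± 0.037 with resveratrol (adjusted p = 0.0439) and -0.15 ± 0.037 with the combination (adjusted p = 0.000678). With libraries scaled by size alone TOPBP1 gave -0.00053 and -0.07, neither called, so its calls rest on the scaling. The call with resveratrol was also lost without NT replicate 6, resveratrol replicate 5 or any of EGCG replicates 1, 2, 4 and 6. EGCG libraries enter that comparison only through the shared gene filter, scaling and fit. Without EGCG replicate 1, 2, 4 or 6 the median log2 fold change of all tested genes with resveratrol was 0.022. It was 0.0037 with all libraries. ATM ranged from 236 to 301 in NT (median 260) and 309 to 331 with resveratrol (318), without overlap, and its log2 fold change was 0.27 ± 0.076 (adjusted p = 0.00273). With the combination ATM gave 0.19 ± 0.078 (adjusted p = 0.0388, exact permutation p = 0.0628), and this call was lost without NT replicate 3, Combination replicate 1 or Combination replicate 4. ATR gave 0.07 and -0.08 and CHEK2 0.13 and 0.02, none of them called.

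**Figure D2:**
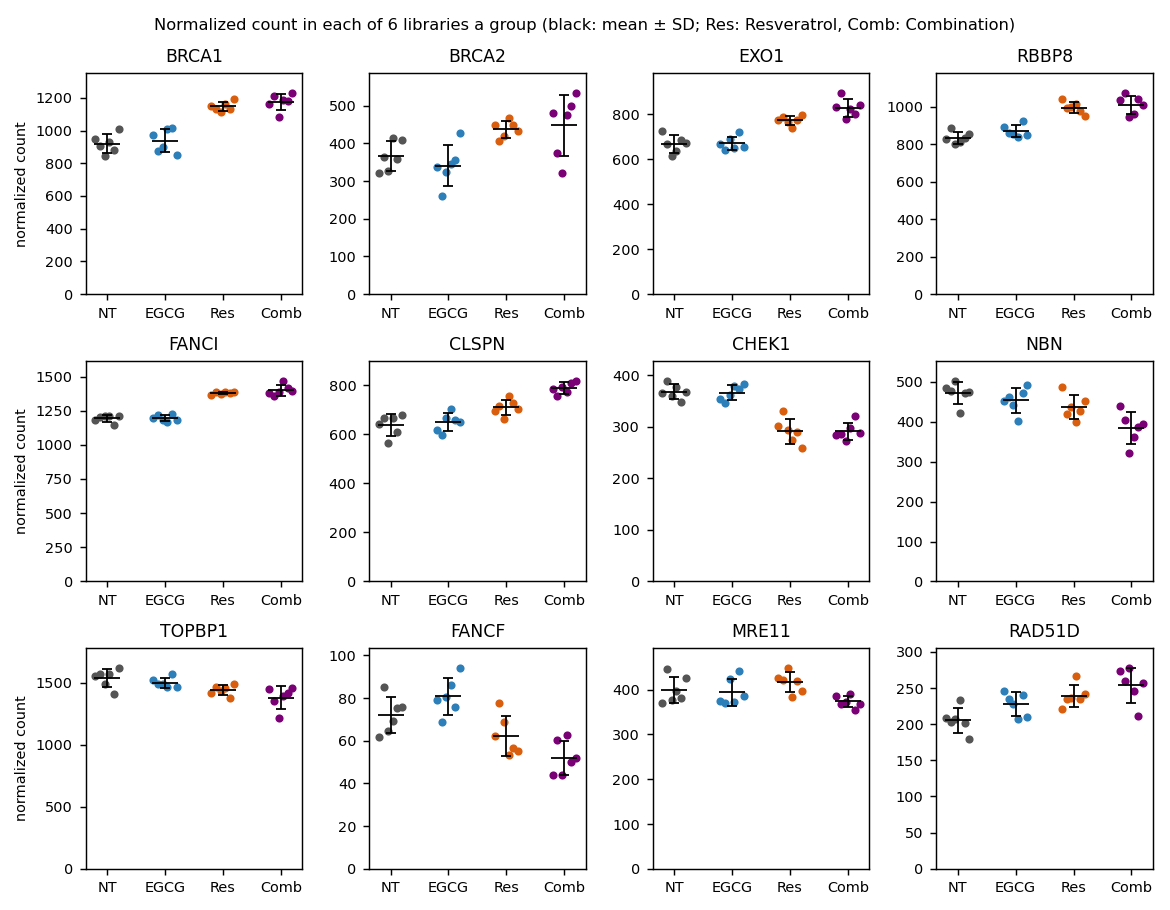
Normalized counts of 12 repair genes in every library, with the mean and SD of each group in black and axes starting at 0. BRCA1, EXO1, RBBP8 and FANCI lie higher and CHEK1 lower in the Res and Comb libraries than in all NT and EGCG libraries, and the Comb libraries of CLSPN, at 757 to 820, lie above all others.

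The BRCA complexes bring the recombinase to the break. BRCA1 pairs with BARD1 as a ubiquitin ligase that favours resection, PALB2 bridges BRCA1 to BRCA2, BRCA2 loads the recombinase, and BRIP1 is a helicase bound to BRCA1. BRCA1 and BRCA2 rose with resveratrol and with the combination. BRIP1 was called with resveratrol, and its call with the combination depended on which libraries were included. The partners BARD1 and PALB2 were not called higher. Beside these, 28.9% of all tested genes rose with resveratrol and 29.9% with the combination.

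BRCA1 (chromosome 17, 43044295 to 43170245, minus strand) had the smallest p of the genes that rose with the combination. It ranged from 846 to 1011 normalized counts in NT (median 917), 853 to 1013 with EGCG (938), 1113 to 1192 with resveratrol (1143) and 1084 to 1227 with the combination (1182). No library given resveratrol overlapped one without it. The increase was 1.25-fold with resveratrol (log2 0.32 ± 0.042, adjusted p = 5.35e-08) and 1.28-fold with the combination (log2 0.35 ± 0.043, adjusted p = 6.89e-09). BRCA2 (chromosome 13, 32315086 to 32400268, plus strand) was less abundant and more variable, at 323 to 415 in NT (median 362), 260 to 427 with EGCG (341), 406 to 469 with resveratrol (441) and 322 to 533 with the combination (479). The lowest Combination library was below the lowest NT library, while 5 of 6 lay above the NT median. That lowest library was replicate 3, and without it the log2 fold change was 0.37. BRCA2 changed by 0.26 ± 0.091 with resveratrol (adjusted p = 0.015) and 0.29 ± 0.092 with the combination (adjusted p = 0.0077), and the exact permutation p for the latter was 0.0584.

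BRIP1 ranged from 183 to 235 normalized counts in NT (median 198), 228 to 280 with resveratrol (234) and 170 to 249 with the combination (220). All 6 resveratrol libraries were above the NT median, while the Combination libraries overlapped NT, with replicate 3 at 170 and the other 5 at 214 to 249. The log2 fold change was 0.26 ± 0.079 with resveratrol (adjusted p = 0.00583) and 0.12 ± 0.081 with the combination (adjusted p = 0.2). BRIP1 was called with the combination without Combination replicate 3 (0.19, adjusted p = 0.0279), without NT replicate 4 (0.17, adjusted p = 0.0827) and within replicates 4 to 6 (0.20, adjusted p = 0.0782). The difference between these treatments, -0.14 ± 0.079, was itself not called (adjusted p = 0.377). PALB2 fell by -0.11 ± 0.047 with the combination (log2, adjusted p = 0.0385), but this call was lost without NT replicate 5, Combination replicate 3 or 6, or EGCG replicate 1, 4 or 6. It was also lost with libraries scaled by size alone and with a filter at 10 counts in every library. EGCG libraries enter this comparison only through the shared gene filter, scaling and fit. Without EGCG replicate 1 the median log2 fold change of all tested genes moved from -0.0015 to 0.016. BARD1 gave -0.05 and -0.04 and was not called.

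Paralogs of the recombinase and its partners act on the filament. RAD51C, RAD51D, XRCC2 and XRCC3 are paralogs that form mediator complexes, RAD51AP1 stimulates strand exchange, and RAD54L and RAD54B are motor proteins that move the filament along DNA. Of these 7 genes 3 rose with resveratrol (RAD51C, RAD51D and RAD54B) and 4 with the combination (RAD51C, RAD51D, XRCC3 and RAD54L), and none fell against NT. The shares of all tested genes were 28.9% higher and 28% lower with resveratrol, and 29.9% each way with the combination.

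RAD51C ranged from 177 to 206 normalized counts in NT (median 193), 208 to 235 with resveratrol (229) and 208 to 244 with the combination (224), without overlap. Its log2 fold change was 0.22 ± 0.056 with resveratrol (adjusted p = 0.00113) and 0.22 ± 0.057 with the combination (adjusted p = 0.00104). RAD51D ranged from 179 to 234 in NT (median 205), 207 to 247 with EGCG (231), 221 to 266 with resveratrol (236) and 211 to 278 with the combination (258). All 18 treated libraries of RAD51D were above the NT median, and the groups overlapped. It gave 0.22 ± 0.065 with resveratrol (adjusted p = 0.00415) and 0.32 ± 0.066 with the combination (adjusted p = 9.85e-05). RAD54L was wholly above NT with the combination, at 301 to 333 (median 306) against 252 to 281 (273), and rose by 0.22 ± 0.055 (adjusted p = 0.000779). XRCC3 rose by 0.13 ± 0.047 with the combination (adjusted p = 0.0159) and its 6 libraries lay above the NT median. XRCC2 (-0.09 and -0.11) and RAD51AP1 (0.12 and 0.12) were not called against NT, but RAD51AP1 was called higher under 11 of 36 alternatives in each comparison, among them the comparison without Combination replicate 3 (0.12, adjusted p = 0.0817, and 0.16, adjusted p = 0.0357).

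RAD54B (chromosome 8, 94371960 to 94475115, minus strand) was the gene with the lowest FPKM. It ranged from 17.3 to 29.5 normalized counts in NT (median 23.9), 15.9 to 22.6 with EGCG (21), 21.8 to 40.4 with resveratrol (29.4) and 17.5 to 33.6 with the combination (26.3). All groups overlapped NT. Its call with resveratrol (log2 0.32 ± 0.16, adjusted p = 0.0785) was not made by DESeq2 and was lost without any of NT replicates 2, 4 and 6 or resveratrol replicates 2, 4, 5 and 6. Within replicates 1 to 3 its log2 fold change was -0.012.

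The Fanconi core complex is the ubiquitin ligase of the pathway. FANCA and FANCG work together in it, FANCB holds FANCL, the ligase itself, FANCC, FANCE and FANCF dock the substrate, and FANCM anchors the complex on DNA. None of these 8 genes was called with resveratrol, where 28.9% of all tested genes rose and 28% fell. FANCF alone was called with the combination, where 29.9% of all tested genes moved in each direction.

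FANCF (chromosome 11, 22622533 to 22625823, minus strand) ranged from 61.7 to 85.1 normalized counts in NT (median 72.3), 68.9 to 94.1 with EGCG (79.8), 53.4 to 77.7 with resveratrol (59.4) and 43.8 to 62.8 with the combination (50.9). Combination libraries lay wholly below those given EGCG and overlapped NT slightly. The combination lowered FANCF by -0.46 ± 0.11 against NT (log2, adjusted p = 0.000721), and resveratrol alone gave -0.18 ± 0.11 (adjusted p = 0.155). The other 7 core genes had log2 fold changes of -0.08 to 0.25 with resveratrol and -0.08 to 0.10 with the combination. FANCB, at 28.3 to 51.9 normalized counts, gave the highest of these and had the widest error (0.25 ± 0.14 with resveratrol).

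FANCD2 and FANCI are the substrates of that ligase. Both rose with resveratrol and with the combination, as did 28.9% and 29.9% of all tested genes. FANCI (chromosome 15, 89243945 to 89317261, plus strand) ranged from 1144 to 1214 normalized counts in NT (median 1207), 1168 to 1228 with EGCG (1188), 1366 to 1390 with resveratrol (1382) and 1354 to 1470 with the combination (1394). Libraries with and without resveratrol did not overlap, and its SD relative to the mean was the smallest of the 34 genes in each of the 4 groups. FANCI rose by 0.21 ± 0.028 with resveratrol (log2, adjusted p = 7.15e-08) and 0.23 ± 0.028 with the combination (adjusted p = 9.19e-09). FANCD2 ranged from 707 to 810 in NT (median 742), 815 to 871 with resveratrol (836) and 781 to 899 with the combination (844). It gave 0.16 ± 0.039 (adjusted p = 0.000578) and 0.17 ± 0.04 (adjusted p = 0.000383).

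**Figure D3:**
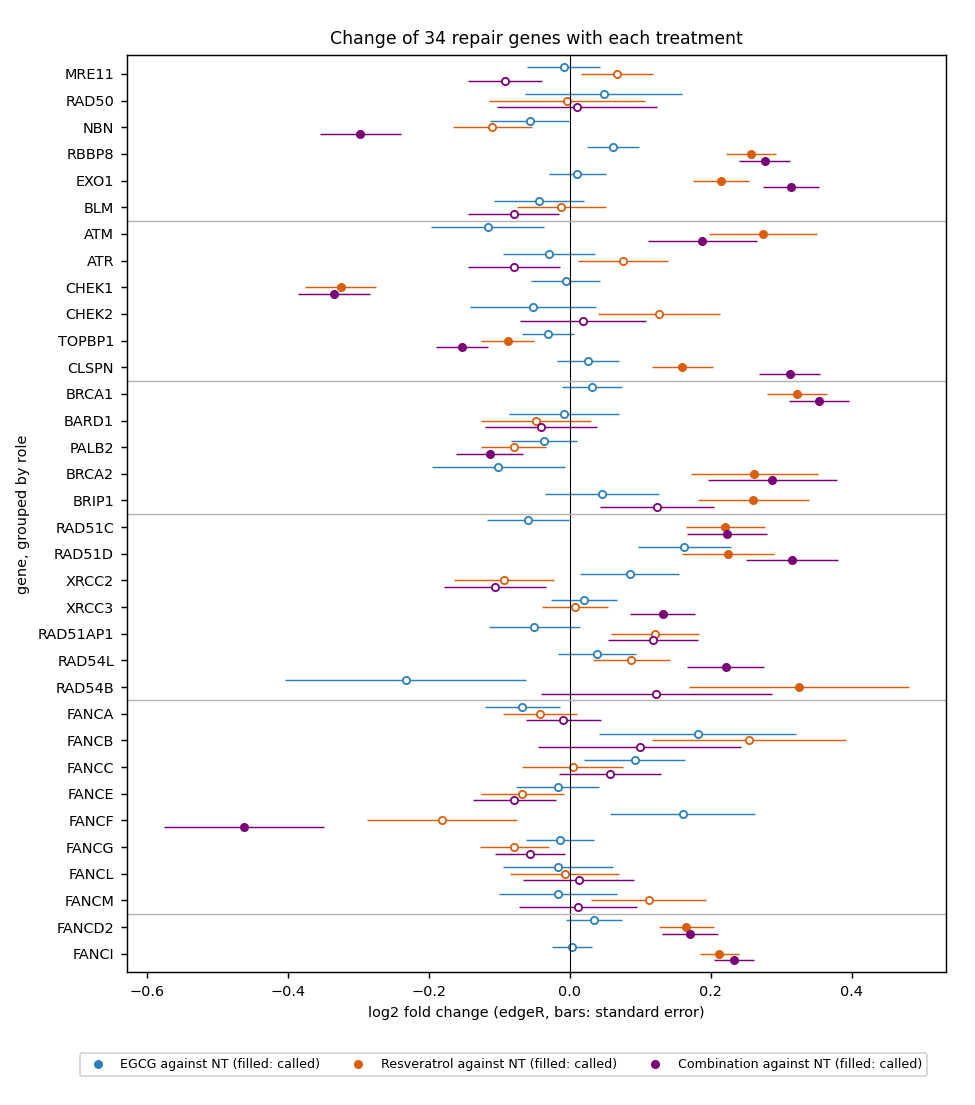
Log2 fold change against NT of each of the 34 genes with EGCG, resveratrol and the combination, with its standard error as a bar, filled where called. All EGCG points are open, FANCF with the combination lies lowest at -0.46, and 7 of the 8 core Fanconi genes are open in all 3 comparisons.

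EGCG alone gave no called change in these genes. None of the 34 passed in edgeR or in DESeq2, where 0.905% of all tested genes rose and 0.859% fell. At an unadjusted p under 0.05 there was 1, RAD51D, at 0.16 ± 0.066 (log2, adjusted p = 0.332). At that limit 806 of the 15476 tested genes rose and 764 fell. The median log2 fold change of the 34 genes was -0.0089, beside 0.0009 for all tested genes. Estimates ran from -0.23 ± 0.17 for RAD54B to 0.18 ± 0.14 for FANCB, which were among the genes with the fewest counts, while FANCI was held to 0.0029 ± 0.029.

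What EGCG added to resveratrol was asked by setting the combination against resveratrol alone. CLSPN rose by 0.15 ± 0.043 (log2, adjusted p = 0.028), with all 6 Combination libraries above all 6 resveratrol libraries. NBN fell by -0.19 ± 0.058 (adjusted p = 0.0493) and MRE11 by -0.16 ± 0.052 (adjusted p = 0.0667), with 5 and 6 of the 6 Combination libraries below the resveratrol median and with overlapping ranges. Thus 1 of 34 rose and 2 fell, where 4.01% of all tested genes rose and 3.86% fell. XRCC3 was also higher in every Combination library than in any resveratrol library but was not called (0.12 ± 0.046, adjusted p = 0.123). These calls were few and not firm. The 3 became 1 without resveratrol replicate 1, when NBN and MRE11 were lost, and NBN was lost as well without Combination replicate 3 or 4. None of the 34 was called within replicates 4 to 6, and MRE11 was lost without any of resveratrol replicates 1, 2, 3 and 5 or Combination replicates 2, 5 and 6.

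A departure from additive effects on the log scale was tested by the interaction of EGCG and resveratrol. None of the 34 genes passed in edgeR or in DESeq2 (lowest adjusted p = 0.411), where 0.207% of all tested genes were higher and 0.0582% lower than additive. At an unadjusted p under 0.05 there were 3, namely FANCF (-0.44 ± 0.15), MRE11 (-0.15 ± 0.073) and CLSPN (0.13 ± 0.061). At that limit 588 of the 15476 tested genes were higher and 607 lower than additive.

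The effect of resveratrol was measured a further time in cells that also received EGCG, by setting the combination against EGCG. That comparison shares no library with resveratrol against NT. In it 14 of the 34 genes rose and 5 fell, where 28.7% of all tested genes rose and 29.1% fell. Without Combination replicate 3 the counts were 13 and 4, and the calls of RAD51D, XRCC2 and XRCC3 were lost. In that setting 4376 of 15554 tested genes rose and 4429 fell. The genes that fell were NBN (-0.24), CHEK1 (-0.33), TOPBP1 (-0.12), XRCC2 (-0.19) and FANCF (-0.62). The 2 comparisons had 13 called genes in common, all with the same direction, which is 92.9% of the 14 called in resveratrol against NT and 68.4% of the 19 called in combination against EGCG. BRIP1 was called only in the former, and FANCF, NBN, RAD51AP1, RAD54L, XRCC2 and XRCC3 only in the latter. None of these was called in the interaction test above, which tests the difference between the comparisons. Log2 fold changes had the same sign for 28 of the 34 genes, with Pearson's r = 0.83 across genes, which are not independent replicates. Of all 15476 tested genes 8807 were called in resveratrol against NT and 8950 in combination against EGCG. Agreement between the comparisons was not counted over all tested genes, so it is not shown to be particular to these 34.

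**Figure D4:**
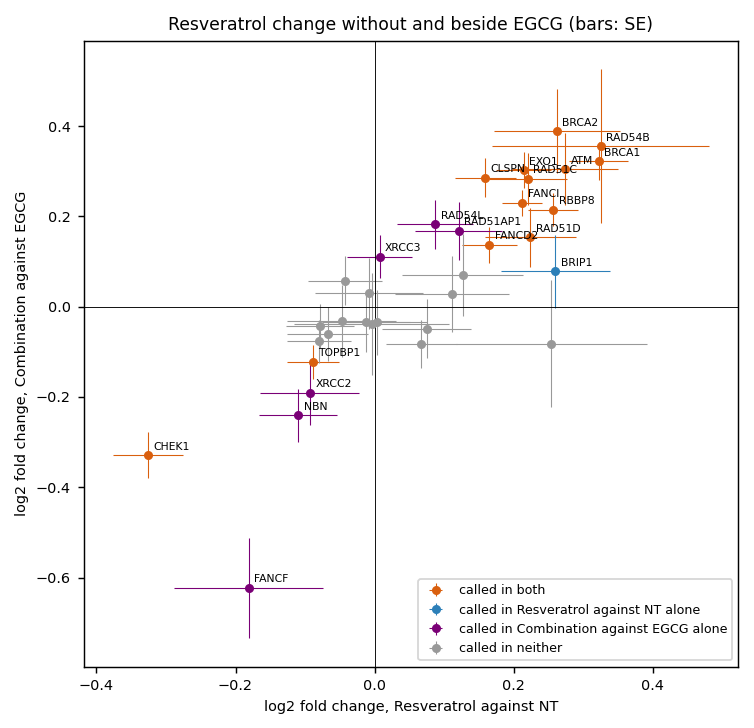
Log2 fold change of each of the 34 genes with resveratrol in cells without EGCG (horizontal, Resveratrol against NT) and with EGCG (vertical, Combination against EGCG), with standard errors as bars and colour for the comparison in which a gene was called. The 13 genes called in both lie in the upper right and lower left quadrants, with CHEK1 at -0.33 on either axis and FANCF lowest on the vertical axis at -0.62.

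Promoters were examined for what the genes might share in sequence. RefSeq promoter windows (GRCh38.p14, 250 bases before to 50 after the gene start) matched 31 of the 34 genes; FANCI, NBN and RAD54B were not examined. An E2F-type motif, TTTCCCGC, TTTGGCGC, TTTCGCGC or TTTGCCGC on either strand, was present in 7 of 31 (22.6%), in 6.55% of the promoters of 10379 tested genes and in 3.99% of all 27305. The 7 were CLSPN, EXO1, FANCD2, TOPBP1, XRCC2, FANCC and FANCA. With the combination 3 of these rose (CLSPN, EXO1 and FANCD2) and 1 fell (TOPBP1), while of the 24 without the motif 8 rose and 3 fell, so carriers of the motif moved in both directions. The cell cycle homology region motif TTTGAA or TTCGAA was found in 3 of 31 (9.68%, against 15.4% of tested genes), CCAAT in 15 (48.4%, against 43.2%) and the NRF1-type GCGCATGC in 2 (6.45%, against 6.38%), each on either strand. None of these motifs contains another, though their ends may share bases. A match in these windows is a description of sequence and not a site of binding.

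The sequences below are the 100 bases that end with the E2F-type motif nearest the gene start for the 4 carriers that were called with the combination, shown to let the position of the motif be compared between 3 genes that rose and 1 that fell. They are read 5′ to 3′ on the strand of the gene, with the motif in capitals. CLSPN lies at chr1:35769976-35770075 (minus strand), EXO1 at chr1:241848116-241848215 (plus strand), FANCD2 at chr3:10026343-10026442 (plus strand) and TOPBP1 at chr3:133661941-133662040 (minus strand). The motif ends 3, 12, 6 and 1 bases past the RefSeq start in CLSPN, EXO1, FANCD2 and TOPBP1, spanning the start in all but EXO1, where it lies wholly after it. For EXO1 and TOPBP1 the RefSeq start lies inside the GENCODE gene bounds given above. The same holds for FANCD2, whose GENCODE bounds are 10026370 to 10101932 on chromosome 3.
CLSPN: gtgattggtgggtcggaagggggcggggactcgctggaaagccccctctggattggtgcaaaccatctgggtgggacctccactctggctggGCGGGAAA
EXO1: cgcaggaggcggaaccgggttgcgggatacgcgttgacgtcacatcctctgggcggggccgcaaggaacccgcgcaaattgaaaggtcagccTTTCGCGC
FANCD2: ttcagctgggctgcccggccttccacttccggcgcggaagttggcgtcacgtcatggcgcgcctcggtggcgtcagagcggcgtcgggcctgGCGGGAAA
TOPBP1: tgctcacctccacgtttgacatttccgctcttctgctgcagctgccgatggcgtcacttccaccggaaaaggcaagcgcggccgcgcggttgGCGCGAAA

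A second list held 46 further genes of recombination and the Fanconi pathway. With resveratrol 17 of them rose and 3 fell, where 28.9% of all tested genes rose and 28% fell, and with the combination 18 rose and 6 fell, where 29.9% of all tested genes moved in each direction, with a median log2 fold change of 0.04 for the latter. The clearest rises were those of SWI5, a partner of the recombinase (345 ± 25.5 normalized counts in NT and 503 ± 23 with the combination, SD, n = 6, log2 0.55 ± 0.052), RPA2, a subunit of the single-strand binding protein (0.32 ± 0.039), and TOP3A, the topoisomerase that works with BLM (0.26 ± 0.036). The clearest falls were those of BRCC3 (-0.29 ± 0.053) and BABAM2 (-0.22 ± 0.068), both of the BRCA1-A complex, and of RAD1 (-0.18 ± 0.055), part of the clamp that activates ATR. Among genes of mitosis, by contrast, none of 24 rose and 23 fell with the combination, with a median log2 fold change of -0.60. The part of the cells' distribution over the cell cycle in the repair genes' values was not tested.

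**Figure D5:**
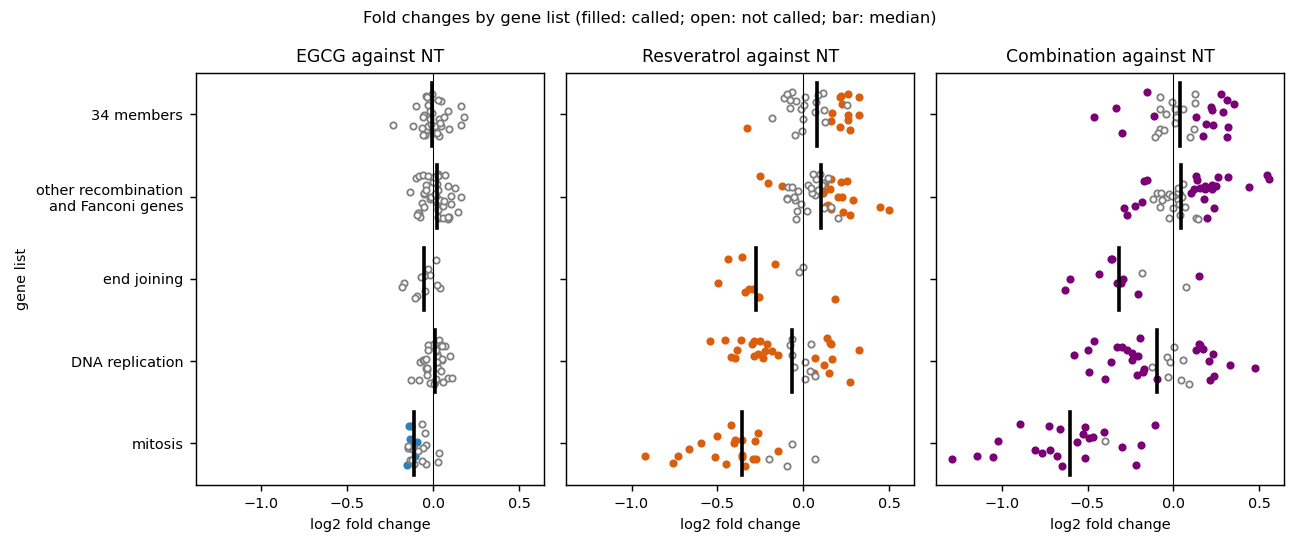
Log2 fold change against NT of each tested gene (points, filled where called) in the 34 repair genes and 4 further lists, with the median of each list as a bar, for EGCG, resveratrol and the combination. With the combination the medians are 0.04 for the 34 genes and for the other recombination and Fanconi genes, -0.32 for end joining, -0.09 for DNA replication and -0.60 for mitosis.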

How the data were processed

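Total RNA of 24 samples (4 groups, 6 each) was made into stranded mRNA libraries and sequenced paired-end. Per the submitters' processing notes the tools were bcl2fastq 2.17.1.14, Trimmomatic 0.36, FastQC 0.11.5, HISAT2 2.0.4, SAMtools 1.3.1 and DESeq2 1.20.0, on GRCh38. The counting program and its strand setting are not given in the sources used here. The authors deposited raw counts per gene, normalized counts (a signal equal to the count divided by a size factor for each library) and FPKM values. All value columns were mapped to a sample (0 unmapped). Totals of 7034872 to 11735574 counts limit precision for the few genes under 50 counts.

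From the raw counts, edgeR 4.0.16 (R 4.3.3) fitted all 24 libraries in 1 model of group means (TMM scaling, filterByExpr, quasi-likelihood test), with a biological coefficient of variation of 5.32%. Standard errors are the log2 fold change over the square root of F. A call needed p under 0.05 and an adjusted p under 0.1 over 15476 genes, limits taken from the study's methods. Printed levels are the deposited normalized counts or the deposited FPKM, and the tests used the counts. Single genes were also compared by two-sided exact permutation of log2 CPM (prior count 2). Gene positions and exon overlaps came from GENCODE, and promoters from RefSeq (GRCh38.p14). The test was checked on simulated data. Full values were given for the 4 genes with the smallest p in each direction with the combination, those called with the combination against resveratrol, BRCA1, BRCA2, and the highest and lowest by FPKM, and up to 3 genes a direction of each further list were named by smallest p. The other genes are given by fold change or range. The members and lists were chosen with earlier results of these data known. Alternatives were DESeq2 1.42.0, other scalings, filters and thresholds, only the groups compared, a replicate block, a term for replicates 1 to 3 against 4 to 6, each of these sets alone, and leaving out each library.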

Additional observations from a re-analysis of the deposited data

Results flagged for a closer look

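In 3 of 136 sets of 6 libraries (34 genes in 4 groups), 1 library lay far from the other 5 by Dixon's test at the 95% level, and chance flags about 1 in 20 such sets. BRIP1 was at 279.7 normalized counts in resveratrol replicate 5, where the others held 228 to 240. PALB2 was at 344.7 in EGCG replicate 2, where the others held 373 to 380. FANCC was at 105.8 in resveratrol replicate 4, where the others held 121 to 128. BRIP1 was called with resveratrol with each library left out in turn, including replicate 5, and the other 2 genes were not called in the comparison their library enters against NT.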

How the results depend on the processing

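For combination against NT, resveratrol against NT and combination against EGCG, the number of the 34 genes called stayed within 1.5 times its value under every alternative run. With each library left out in turn it was 16 to 18 for combination against NT (17 with all libraries), 12 to 16 for resveratrol against NT (14), 17 to 19 for combination against EGCG (19), 1 to 4 for combination against resveratrol (3), and 0 for EGCG against NT and for the interaction. Combination against resveratrol gave 8 at an unadjusted p under 0.05, 2 within replicates 1 to 3 and 0 within replicates 4 to 6. Among all tested genes these settings called 2811 of 15476, 816 of 15691 and 399 of 15442. At an unadjusted p under 0.05, EGCG against NT gave 1 and the interaction 3, where 1570 and 1195 of 15476 tested genes passed. Scaling by library size alone gave 21 calls for resveratrol against NT (20 higher and 1 lower, with 39.7% and 18.5% of all tested genes), 17 for combination against NT (14 and 3, with 39.0% and 21.4%) and 18 for combination against EGCG (15 and 3, with 37.1% and 21.0%), and moved the median log2 fold change of all tested genes to 0.09, 0.08 and 0.07. Filtering at 10 counts in every library gave 16 for resveratrol against NT (15 higher and 1 lower). Of the 13485 genes tested with that filter 4429 rose and 3665 fell. RAD54B changed sign within replicates 1 to 3, to -0.012 with resveratrol against NT and -0.0017 with the combination against EGCG. Calls that were often lost were those of RAD54B, of TOPBP1 with resveratrol, of PALB2 with the combination and of MRE11 with the combination against resveratrol, and the cause was not tested. Calls were also lost within replicates 1 to 3 for RAD51C with resveratrol and for ATM and BRCA2 with the combination, within replicates 4 to 6 for XRCC3 with the combination, and within either set for CLSPN with the combination against resveratrol. Of 36 alternatives, calls were gained under 11 for RAD51AP1 with resveratrol and 11 with the combination, 8 for NBN and 5 for FANCB with resveratrol, 4 for BRIP1 with the combination, and 5 for ATR and 4 for XRCC3 with the combination against resveratrol.

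Replicate numbers were not taken to pair the samples, since the labels give no shared source. Deviations from group means correlated at -0.011 to 0.131 between the 36 pairs of the same number (median 0.049), beside medians of 0.028 for other numbers within replicates 1 to 3 or 4 to 6 and -0.041 between these sets. Of 24 libraries 11 correlated best with their own number among the 6 numbers, a hint of pairing from the data and not from the design. With a replicate block the calls were 17 for combination against NT, 14 for resveratrol against NT, 18 for combination against EGCG, 5 for combination against resveratrol, and 0 for EGCG against NT and the interaction. Among 15476 tested genes the block gave 9479, 9042, 9136, 1520, 370 and 85 calls, in the same order. The block added ATR (-0.16, adjusted p = 0.035) and XRCC3 (0.12, adjusted p = 0.0978) to the calls for combination against resveratrol and NBN (-0.11, adjusted p = 0.0494) to those for resveratrol against NT. ATR was also called there with a term for replicates 1 to 3 against 4 to 6 (adjusted p = 0.0604).

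Low counts limit RAD54B, FANCB, RAD50 and FANCF, whose standard errors were 0.10 or more. Changes of the size seen for BRCA1 could not be resolved as firmly in them. Whether the exon bases that RAD50 and RAD54B share with other genes lowered their counts was not tested.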

Other observations

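End joining, the pathway that ligates broken ends without a template, mostly fell in its listed genes. Of 14 listed genes 12 were tested, and with the combination 9 fell and 1 rose (median log2 fold change -0.32). Among all tested genes 29.9% moved in each direction. XRCC5 and XRCC6, which encode the Ku heterodimer that caps broken ends, fell from 3155 ± 91.3 to 2328 ± 74.5 and from 6948 ± 119 to 5526 ± 134 normalized counts (mean ± SD, n = 6; log2 -0.44 ± 0.028 and -0.33 ± 0.024), and SHLD2, a shieldin subunit that protects ends from resection, fell by -0.63 ± 0.076. TP53BP1, which recruits shieldin, was the gene that rose (0.15 ± 0.046). With resveratrol alone 9 fell and 1 rose, where 28% of all tested genes fell and 28.9% rose. None was called with EGCG alone, where 0.859% of all tested genes fell and 0.905% rose.

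DNA replication genes moved in both directions. With the combination 10 of 35 rose and 17 fell, where 29.9% of all tested genes moved in each direction. The share that rose was thus near that of all genes. CDC6, the licensing factor (0.23 ± 0.027), RRM2, a ribonucleotide reductase subunit (0.21 ± 0.028), and POLA2, a subunit of the primase complex (0.47 ± 0.073), rose, while the helicase genes MCM5 (-0.50 ± 0.028), MCM6 (-0.49 ± 0.033) and GINS2 (-0.58 ± 0.047) fell. Of the mitotic genes the clearest falls with the combination were those of the kinases PLK1 (-1.29 ± 0.038) and AURKA (-1.02 ± 0.032) and the kinesin KIF20A (-1.14 ± 0.04). With EGCG alone 7 of the 24 mitotic genes fell, where 0.905% of all tested genes rose and 0.859% fell. At shares that low, 0 calls among the 34 repair genes does not set these apart.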
